A study of Drosophila melanogaster with 36 samples.

Results

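Brains of female wandering third-instar larvae with the genotype H3.3K36RH3.2HWT, in which the histone variant H3.3 is named as carrying arginine in place of lysine 36, were set against female brains of the genotype H3.3CtrlH3.2HWT. These were the 6 of 36 polyA RNA-seq libraries whose titles give the genotypes and the sex, 3 libraries for each genotype, and every gene of the table was considered. The check of which genotype stood apart used 6 further female libraries, 3 of H3.3WTH3.2HWT and 3 of yw, and the male libraries of both H3.3 genotypes, again 3 each. Female libraries of H3.3WTH3.2K36R, with the substitution named in H3.2, and of Set21, a mutant of the methyltransferase Set2, 3 each, were used for comparison. These groups are called H3.3K36R, H3.3Ctrl, H3.3WT (for H3.3WTH3.2HWT), yw, H3.2K36R (for H3.3WTH3.2K36R) and Set21. All larvae were raised at 25 °C. The labels name the genotypes without their alleles, transgene promoters or stocks, and the series' design text says that mutants and controls had the same genetic background. The name H3.2HWT is shared by H3.3K36R, H3.3Ctrl and H3.3WT brains and is absent from yw, H3.2K36R and Set21. A genotype name covers all libraries of its group, so the substitution and any other difference between the stocks cannot be told apart. The labels do not say whether libraries of a group came from separate animals or pools, so p-values measure the spread between these libraries. In whole brains, fewer cells of a type and less RNA per cell cannot be told apart.

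H3.3 is the histone H3 that is put into chromatin outside replication, mostly at transcribed genes, and in the fly it is made from His3.3A on chromosome arm 2L and His3.3B on the X. Lysine 36 of histone H3 is methylated over transcribed gene bodies by Set2, with NSD and Ash1 adding the mark elsewhere, and an arginine at that place cannot receive it. In fly males the single X is transcribed at a raised rate by a complex that holds the roX RNAs and the protein Msl-2 and that reads this mark through Msl-3.

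The 6 libraries held 97067869 to 128768861 counted reads, and 12167 genes passed the filter on low counts. Levels are given as CPM, the counts scaled to a common library total with TMM factors of 0.974 to 1.005 in these libraries, and a gene is called where the Benjamini-Hochberg adjusted p of edgeR's quasi-likelihood test is under 0.05. A log2 fold change is H3.3K36R over H3.3Ctrl, followed by its standard error. Neuronal elav stood at 977 to 1040 CPM in H3.3K36R and 918 to 1100 CPM in H3.3Ctrl females, glial repo at 108 to 113 CPM in H3.3K36R and 119 to 133 CPM in H3.3Ctrl, and the neural stem cell gene dpn at 35.4 to 43.7 CPM in H3.3K36R and 41.5 to 42.5 CPM in H3.3Ctrl, so the defining markers of a larval brain were present in both genotypes. Genes of the attached ring gland were present as well: summed over 16 genes they made 677 to 812 CPM in H3.3K36R and 837 to 1020 CPM in H3.3Ctrl females, ranges that do not overlap, against 945 to 1040 CPM in H3.3WT and 674 to 770 CPM in yw. Of the 15 ring gland genes tested, 14 had a fold change below 0 and none was called, with a median log2 fold change of -0.58. The part of ring gland RNA in the calls below was not tested. Markers of hemocytes (1450 to 1630 CPM in H3.3K36R against 1400 to 1620 CPM in H3.3Ctrl summed over 19 genes) and of muscle (610 to 641 CPM in H3.3K36R against 613 to 652 CPM in H3.3Ctrl summed over 18 genes) overlapped between the genotypes.

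The H3.3 genes themselves did not separate mutant from control. His3.3A stood at 73, 70.5 and 64.6 CPM in H3.3K36R females and at 66.9, 69.7 and 60.2 CPM in H3.3Ctrl females. The other controls had 296, 313 and 306 CPM in H3.3WT and 316, 304 and 294 CPM in yw. Both H3.3 genotypes were therefore far below the other controls and overlapped each other (log2 fold change 0.08 ± 0.06, adjusted p = 0.556, edgeR). His3.3B, the X-linked gene, had 3571, 3417 and 3368 CPM in H3.3K36R and 3557, 3468 and 3672 CPM in H3.3Ctrl females (-0.05 ± 0.04, adjusted p = 0.611, edgeR). Counts per gene cannot show an amino acid change, so the label K36R was not checked by these values.

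H3.3K36R female brains differed from H3.3Ctrl female brains at 772 of the 12167 genes, or 6.35% of those tested: 419 genes rose (3.44%) and 353 fell (2.9%). Of the 772, 228 differed by 2-fold or more, 149 of them higher and 79 lower. The median absolute log2 fold change of the called genes was 0.45, and the median log2 fold change of all tested genes was -0.0002. The number of calls rests in part on the shared estimate of spread: a fit of the 6 libraries alone called 320 genes, of which 301 were among the 772 with the same direction. Leaving out any 1 of the 6 libraries gave 571 to 712 calls, and 406 of the 772 genes were called without each of them in turn.

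The largest rises were of genes that were low or silent in every control genotype. mthl8, a gene of the Methuselah-like family of G protein-coupled receptors, had 18.1, 16 and 17.1 CPM in H3.3K36R females and no read in the 3 H3.3Ctrl libraries. Against a floor of 3 reads in each H3.3Ctrl library this is at least 649-fold higher. H3.3WT females had 0.0194 CPM in 1 library and none in the others, and yw females had none, while Set21 females, mutant for the methyltransferase Set2, averaged 0.201 CPM. GILT3, of the gamma-interferon-inducible thiol reductase family, had 12.3, 15.6 and 17.1 CPM in H3.3K36R against 0.767, 0.959 and 1.07 CPM in H3.3Ctrl females (log2 fold change 4.01 ± 0.14, adjusted p = 1.08e-18, edgeR). Ugt302K1, a UDP-glycosyltransferase, had 8.30, 8.53 and 8.97 CPM in H3.3K36R against 0.759, 0.663 and 0.567 CPM in H3.3Ctrl females (3.69 ± 0.24). For both genes H3.3WT and yw females lay with H3.3Ctrl, between 0.835 and 1.20 CPM for GILT3 and between 0.523 and 1.48 CPM for Ugt302K1. A smaller rise was that of pst (pastrel, known for its part in resistance to viruses), had 23.3, 15.9 and 23.4 CPM in H3.3K36R against 3.38, 3.95 and 2.85 CPM in H3.3Ctrl (2.62 ± 0.28).

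pst lies on 3L beside asRNA:CR45822, which had 8.83, 5.07 and 8.59 CPM in H3.3K36R against 0.188, 0.122 and 0.166 CPM in H3.3Ctrl females. In both genes the second H3.3K36R library was the lowest of the 3. The kit marks strand, but the labels do not say whether reads were counted by strand, so the RNA named as antisense and its partner may share reads. CG34031, also on 3L and of unnamed function, had 6.10, 7.44 and 5.78 CPM in H3.3K36R against 0.0939, 0.183 and 0.176 CPM in H3.3Ctrl females. Cyp6t1, a cytochrome P450 gene on the X, had 8.53, 8.71 and 11.2 CPM in H3.3K36R against 1.93, 1.24 and 2.65 CPM in H3.3Ctrl (2.29 ± 0.21). Rubicon, a regulator of autophagy on the X, had 54.9, 54.4 and 48.6 CPM in H3.3K36R against 22.7, 26.4 and 22.1 CPM in H3.3Ctrl females (1.15 ± 0.06), with 20.6 to 25.6 CPM in the other controls. RhoGAP102A on chromosome 4 rose by 1.15 ± 0.10 and the inward rectifier potassium channel gene Irk2 on 3R by 1.07 ± 0.19. GstO3, a glutathione S-transferase, rose by 1.08 ± 0.16 but was not called in the fit of the 6 libraries alone (adjusted p = 0.0693, edgeR). GstT4, another glutathione S-transferase, had 13.7, 12.5 and 9.03 CPM in H3.3K36R against 5.11, 8.82 and 2.93 CPM in H3.3Ctrl females, and its call was lost without H3.3Ctrl replicate 1 or 3 (adjusted p = 0.0555 and 0.0762, edgeR).

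**Figure D1:**
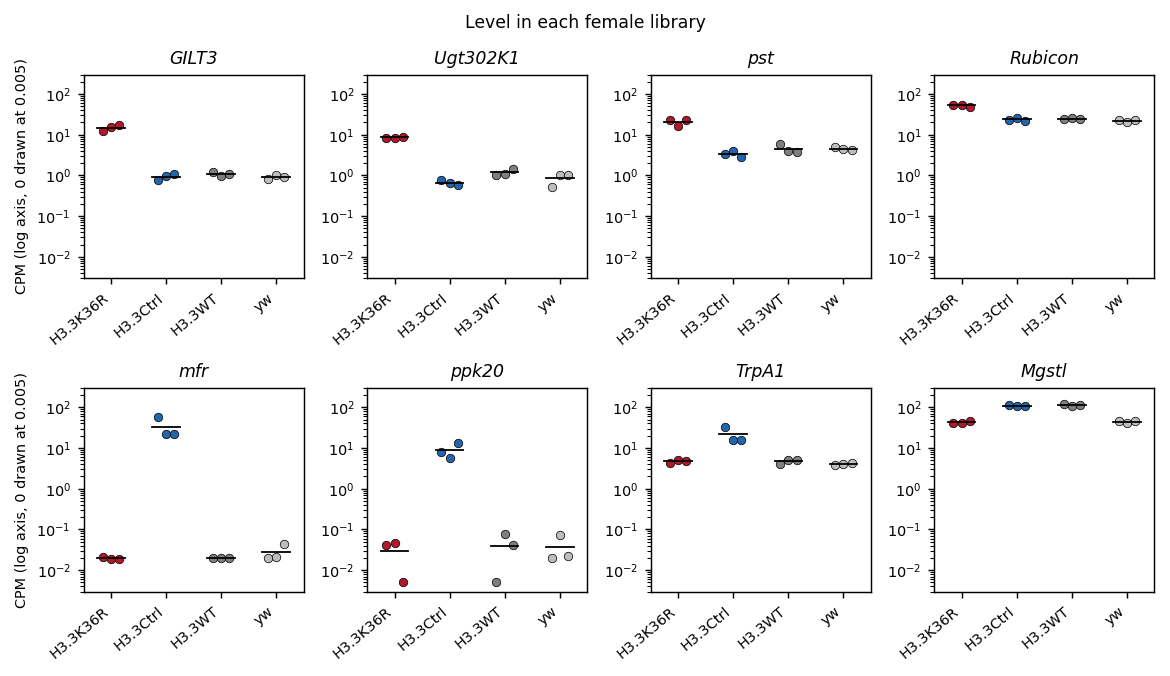
Level of 8 genes in each female library (CPM, log axis, 0 drawn at 0.005); points are libraries, 3 for each genotype, and lines are group means. For GILT3, Ugt302K1, pst and Rubicon only the H3.3K36R libraries lie apart from the other 3 genotypes; for mfr, ppk20 and TrpA1 only the H3.3Ctrl libraries do, and for Mgstl the H3.3K36R libraries lie with yw.

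Several of the deepest falls came with an unusual level in the control, although over all falls H3.3K36R alone was apart from the other controls more often than H3.3Ctrl alone (152 and 47 genes). mfr (misfire, a gene needed by sperm at fertilization) had 0.0206, 0.0184 and 0.0192 CPM in H3.3K36R females, 6 reads in all, against 56.2, 22.3 and 22.5 CPM in H3.3Ctrl females. H3.3WT females had 0.0194 to 0.0205 CPM and yw females 0.0201 to 0.0441 CPM, so the H3.3Ctrl libraries alone held this RNA. Its neighbour on 3L, TrpA1, which encodes a channel for heat and irritants, had 4.36, 5.13 and 4.79 CPM in H3.3K36R against 33.1, 15.7 and 15.8 CPM in H3.3Ctrl females (-2.18 ± 0.18, adjusted p = 5.84e-10, edgeR), with 3.90 to 5.11 CPM in the other controls. The first H3.3Ctrl library was the highest for both neighbours. H3.3Ctrl also stood alone at an adjacent pair of pickpocket sodium channel genes on 3R, where its replicate 3 was the highest. ppk20 had 0.0412, 0.0459 and 0 CPM in H3.3K36R against 7.82, 5.71 and 13 CPM in H3.3Ctrl females, and ppk30 had 0.0515, 0.0919 and 0.116 CPM in H3.3K36R against 5.39, 4.33 and 9.42 CPM in H3.3Ctrl. In H3.3WT and yw females ppk20 reached at most 0.0779 CPM and ppk30 at most 0.156 CPM. CG14445 on the X had 0.144, 0.340 and 0.212 CPM in H3.3K36R against 10.5, 10.2 and 9.85 CPM in H3.3Ctrl females, and 0.237 to 0.717 CPM in the other controls.

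Other deep falls came with an unusual level in the mutant, and some divided the controls. CG6912 on 3R had 3.35, 3.63 and 4.39 CPM in H3.3K36R and 34.9, 33.1 and 33.3 CPM in H3.3Ctrl females, while H3.3WT had 60.4 to 66.3 CPM and yw 49.0 to 56 CPM, so both H3.3 genotypes lay below the other controls and the mutant far below. Its neighbour asRNA:CR45600 followed with 5.45, 5.58 and 6.84 CPM in H3.3K36R against 48.8, 45.3 and 47.5 CPM in H3.3Ctrl. CG32641 on the X had 0.319, 0.294 and 0.414 CPM in H3.3K36R against 5.33, 5.74 and 6.10 CPM in H3.3Ctrl females, below the 2.59 CPM that was the lowest among the other controls. CG34138 had 0.0206, 0.0459 and 0.0962 CPM in H3.3K36R against 17.1, 15.7 and 15.5 CPM in H3.3Ctrl females; H3.3WT females resembled the control (14.3 to 16.9 CPM) and yw females the mutant (at most 0.0441 CPM). Mgstl, the microsomal glutathione S-transferase gene on the X, was split in the same way, with 42, 40.8 and 45.1 CPM in H3.3K36R against 112, 110 and 105 CPM in H3.3Ctrl females (-1.36 ± 0.05, adjusted p = 1.29e-18, edgeR), 110 to 120 CPM in H3.3WT and 41.7 to 46.2 CPM in yw. Irc, the immune-regulated catalase, had 10.4, 13.4 and 9.68 CPM in H3.3K36R against 28.5, 32.4 and 24.7 CPM in H3.3Ctrl females (-1.35 ± 0.16), with H3.3WT and yw between them at 15.2 to 24.6 CPM. lncRNA:Hsromega, the heat shock omega RNA, had 106, 112 and 113 CPM in H3.3K36R against 177, 182 and 178 CPM in H3.3Ctrl (-0.70 ± 0.12), and the water-taste channel gene ppk28 had 3.29, 4.01 and 3.57 CPM in H3.3K36R against 5.64, 6.40 and 5.53 CPM in H3.3Ctrl (-0.69 ± 0.10). The other controls were divided at ppk28, with a mean of 5.86 CPM in H3.3WT and 3.14 CPM in yw. Among the other large falls, Culd had 59.1, 89.3 and 20.8 CPM in H3.3K36R against 102, 131 and 120 CPM in H3.3Ctrl females. H3.3WT females averaged 130 CPM and yw females 2.88 CPM, so every H3.3K36R library was far above yw. The call of Culd was lost without any 1 of 4 libraries (highest adjusted p = 0.0972, without H3.3K36R replicate 3, edgeR). Likewise cu (curled, the fly nocturnin gene) lost its call without any 1 of 3 libraries (highest adjusted p = 0.172, without H3.3Ctrl replicate 2), and Cyp4g1, a P450 of hydrocarbon synthesis in oenocytes, without any 1 of 5 (highest adjusted p = 0.215, without H3.3K36R replicate 3). At cu the other controls were divided, with a mean of 86.7 CPM in H3.3WT and 38.1 CPM in yw, beside 40.7 CPM in H3.3K36R and 75.3 CPM in H3.3Ctrl.

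Over all 772 called genes the mutant was the odd one more often than the control. A genotype was counted as apart where its 3 libraries all lay above, or all below, the 6 libraries of H3.3WT and yw females. H3.3K36R alone was apart at 404 genes (52.3%), H3.3Ctrl alone at 75 (9.72%), both at 59 (7.64%) and neither at 234 (30.3%). Among all 12167 genes H3.3K36R libraries were outside the other controls at 12.7% and H3.3Ctrl libraries at 6.2%, and among the 11395 genes not called H3.3K36R alone was apart at 6.8% and H3.3Ctrl alone at 2.76%. The median distance from the mean of H3.3WT and yw was 0.37 on the log2 scale for H3.3K36R and 0.15 for H3.3Ctrl over the called genes, and the mutant was the farther of the pair at 593 genes and the control at 179. Rises were assigned to the mutant more often than falls: H3.3K36R alone was apart at 252 of the 419 genes that rose (60.1%) and at 152 of the 353 that fell (43.1%), and H3.3Ctrl alone at 28 (6.68%) and 47 (13.3%). Of the 228 genes changed by 2-fold or more, H3.3K36R alone was apart at 138 and H3.3Ctrl alone at 15.

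The split depended on the comparison libraries, although H3.3K36R alone was apart more often than H3.3Ctrl alone with either set. Against yw females alone H3.3K36R only was apart at 356 and H3.3Ctrl only at 109 of the called genes, and against H3.3WT females alone at 427 and 113. Both genotypes were apart at 272 genes against yw alone and 164 against H3.3WT alone, and neither at 35 and 68, where 3 libraries in place of 6 had to be exceeded. Fitted over all genes, H3.3K36R females differed from the mean of H3.3WT and yw females at 2249 genes (18.5%) and H3.3Ctrl females at 1144 (9.4%). Both comparisons use the same 6 libraries of other controls. Over all tested genes, the root mean square difference of mean log2 CPM was 0.483 between H3.3K36R and H3.3Ctrl, 0.574 between H3.3K36R and H3.3WT and 0.724 between H3.3K36R and yw, against 0.493 between H3.3Ctrl and H3.3WT and 0.651 between H3.3Ctrl and yw. Single libraries of 1 genotype lay 0.489 to 0.59 apart on the same measure, and H3.3WT and yw, with 0.658 between their means, were themselves far apart. Over genes with a mean of at least 5 CPM, H3.3K36R lay 0.256 from H3.3WT and H3.3Ctrl lay 0.23 from it. From yw they were about equally far over these genes, 0.384 for H3.3K36R and 0.389 for H3.3Ctrl. Over all tested genes, the distances of H3.3Ctrl to H3.3K36R and to H3.3WT were close, and their order turned when any 1 H3.3K36R library was left out (0.506 to 0.511 against 0.495 to 0.496). A mean of fewer libraries is noisier, and here that touched only the distance to H3.3K36R, so this turn cannot rank the 2 distances. Without any 1 H3.3Ctrl library, which enters both distances, the order stayed (0.509 to 0.518 against 0.514 to 0.534).

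**Figure D2:**
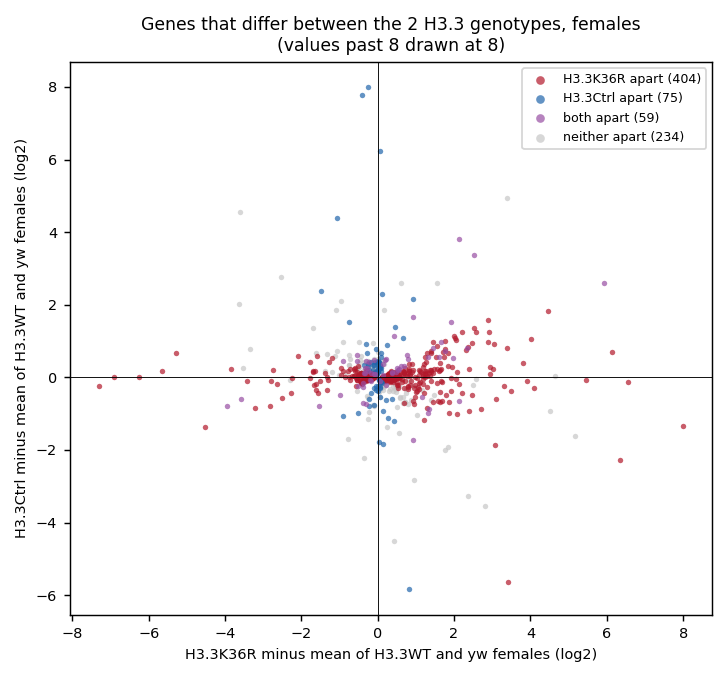
The 772 called genes by the difference of H3.3K36R (x axis) and of H3.3Ctrl (y axis) from the mean of H3.3WT and yw females, log2; each point is 1 gene, coloured by which genotype's libraries lay outside the 6 other control libraries. Both axes share those 6 libraries. The 404 genes of H3.3K36R spread along the horizontal axis and the 75 of H3.3Ctrl along the vertical axis.

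The calls were spread unevenly over the chromosomes. On the X, 257 of 2016 tested genes were called (12.7%), against 494 of 9962 on the major autosome arms (4.96%). Chromosome 3 held more calls than chromosome 2, with 6.48% of genes on 3L and 7.15% on 3R against 2.55% on 2L and 2.95% on 2R, and on the small chromosome 4, 12 of 105 genes were called, 10 of them higher. X-linked calls leaned to falls (111 higher and 146 lower) and 2R calls to rises (53 higher and 19 lower), while the median log2 fold change of all X-linked genes was -0.01. H3.3K36R alone was apart from the other controls at 149 of the 257 X-linked calls and H3.3Ctrl alone at 22, beside 404 (52.3%) and 75 (9.72%) of all 772 calls. Set against the mean of H3.3WT and yw, 22.7% of X-linked genes were called for H3.3K36R and 8.93% for H3.3Ctrl, beside 18.5% and 9.4% of all tested genes.

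Called genes also lay beside each other. With genes put in order along each arm, 208 of the 751 called genes on the 5 large arms had an adjacent tested gene that was called too (27.7%), against 11.9% of all tested genes on these arms. Of 112 adjacent called pairs, 78 moved the same way. No background share for pairs that move the same way was worked out. Pairs named here that moved the same way include TrpA1 with mfr, ppk20 with ppk30, asRNA:CR45822 with pst, CG6912 with asRNA:CR45600, Gr64a with Gr64f, and sturkopf with Herc4. The adjacent X-linked genes RpS14a and RpS14b moved in opposite directions (log2 fold change 0.35 and -0.76). Along the X each full stretch of 100 tested genes held 3 to 22 calls, with the most in the stretch next to the base of the arm. Calls on 2R were few except in the first stretch, where 15 of 100 genes were called, and on 3L the full stretch with the most calls, 16, was the last full one, followed by 9 calls among the 37 genes that remain up to the centromere. On 3R the full stretch with the most calls, also 16, lay away from the centromere. Whether the clusters follow the substitution or the stocks' chromosomes cannot be told apart.

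**Figure D3:**
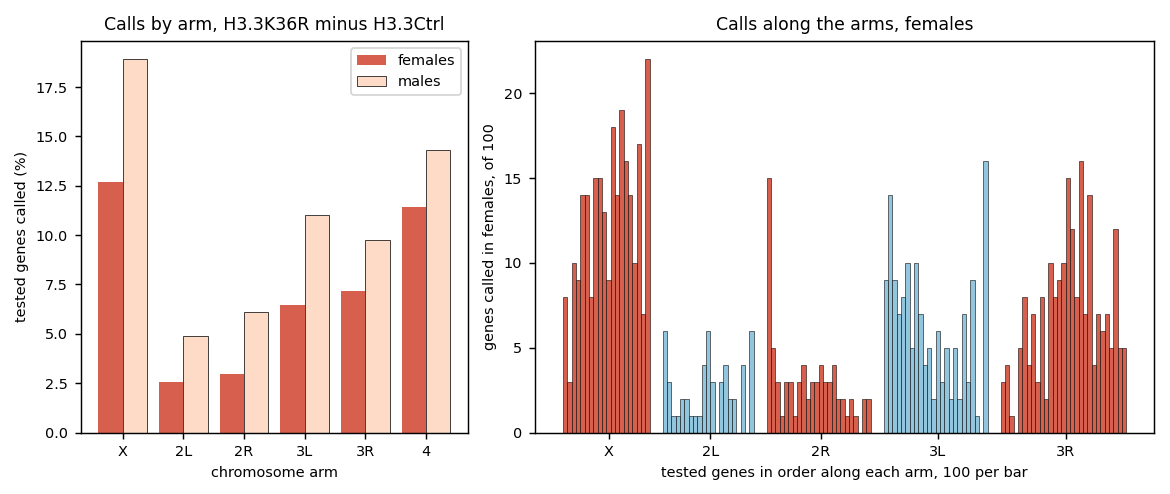
Left, share of tested genes called on each chromosome arm for H3.3K36R minus H3.3Ctrl (percent), females beside males; right, number called in females in each run of 100 tested genes in order along the arms. The X stands at 12.7% in females and 18.9% in males, 2L at 2.55% and 4.87%, and the first bar of 2R reaches 15 of 100.

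Germline genes were the list with the largest share of calls. The list, written with earlier results of these data known, held 26 tested genes, of which 10 rose and 2 fell (46.2%, beside 6.35% of all genes, and 8 calls in the fit of the 6 libraries alone), with a median log2 fold change of 0.40 beside -0.0002 for all genes. krimp (krimper, a Tudor protein of the piRNA pathway) had 27.8, 27.7 and 25.5 CPM in H3.3K36R against 8.52, 10.3 and 9.37 CPM in H3.3Ctrl females (1.52 ± 0.10, adjusted p = 2.26e-12, edgeR). H3.3WT females had 8.69 to 11 CPM and yw females 2.38 to 3.22 CPM, so the mutant was above every control library. Marf1, a regulator of meiosis in oocytes, had 26.4, 28.4 and 26.1 CPM in H3.3K36R against 9.52, 9.63 and 9.18 CPM in H3.3Ctrl (1.51 ± 0.20), with 8.02 to 8.29 CPM in H3.3WT and 3.21 to 3.79 CPM in yw. qin, another Tudor protein of the piRNA pathway, had 5.4, 6.18 and 7.46 CPM in H3.3K36R against 2.67, 2.60 and 2.82 CPM in H3.3Ctrl (1.24 ± 0.12), and rhi (rhino, the chromatin protein of piRNA clusters) had 1.43, 1.85 and 1.53 CPM in H3.3K36R against 0.462, 0.593 and 0.460 CPM in H3.3Ctrl (1.67 ± 0.25). These 4 were called without any 1 library, in the fit of the 6 libraries alone and in males, where 10 of the list rose and 3 fell. Of 3 germ cell markers, zpg, the germline gap junction gene, rose at a low level, with 0.257 to 0.422 CPM in H3.3K36R against 0.0782 to 0.122 CPM in H3.3Ctrl females (1.92 ± 0.36, adjusted p = 0.000623, edgeR). The marker vas was not called, with 3.29 to 5.79 CPM in H3.3K36R against 3.37 to 4.85 CPM in H3.3Ctrl females (0.12 ± 0.18, adjusted p = 0.828, edgeR), and nor was nanos, at 0.185 to 0.289 CPM in H3.3K36R against 0.215 to 0.282 CPM in H3.3Ctrl. Summed over its 29 genes in the table, the list made 885 to 917 CPM in H3.3K36R against 858 to 899 CPM in H3.3Ctrl females, ranges that overlap.

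**Figure D4:**
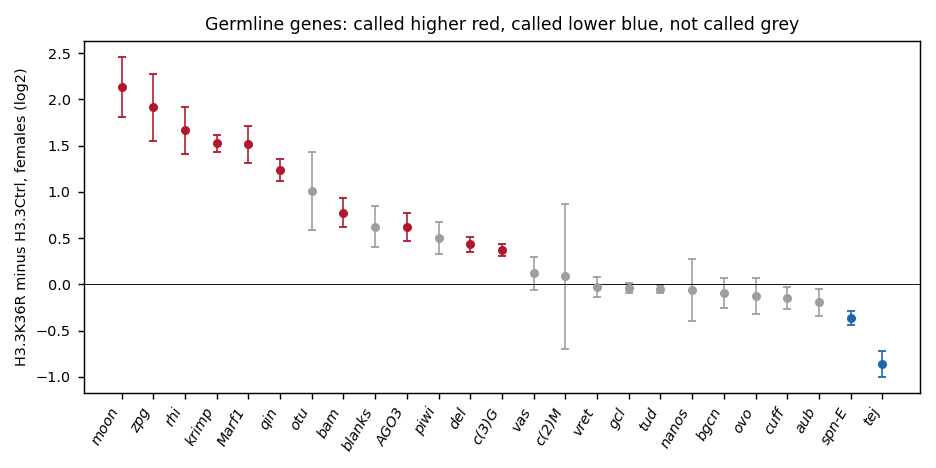
Log2 fold change of H3.3K36R over H3.3Ctrl in female brains for 25 of the 26 tested germline genes, with standard errors; red genes were called higher, blue called lower, grey not called. ord, with almost no reads in either genotype, is not drawn. The 10 genes called higher reach from c(3)G at 0.37 to moon at 2.13, and spn-E at -0.37 and tej at -0.86 were called lower.

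Taste and smell receptor genes were the other list with several rises, all at low levels: of 57 tested, 5 rose and 1 fell (10.5%, beside 6.35% of all genes), with a median log2 fold change of 0.12. Summed over its 185 genes in the table, the list made 48.8 to 51.3 CPM in H3.3K36R against 50.3 to 52.2 CPM in H3.3Ctrl females, ranges that overlap. Gr64a and Gr64f, neighbouring sugar receptor genes, had 1.89, 2.20 and 2.47 CPM and 0.597, 0.882 and 0.818 CPM in H3.3K36R females, against 0.0861, 0.148 and 0.0782 CPM and 0.203, 0.105 and 0.215 CPM in H3.3Ctrl females. Gr61a, a further sugar receptor gene, had 4.57, 4 and 3.92 CPM in H3.3K36R against 2.36, 2.27 and 1.54 CPM in H3.3Ctrl (1.01 ± 0.15). Ir76a fell, with 10, 9.85 and 10.6 CPM in H3.3K36R against 18.1, 17.9 and 18.1 CPM in H3.3Ctrl females (-0.83 ± 0.09), while H3.3WT averaged 8.03 CPM and yw 0.384 CPM, so both H3.3 genotypes lay above the other controls and H3.3Ctrl was the higher.

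Of 14 tested factors that write, read and erase lysine 36 methylation, 1 rose and 2 fell (21.4%, beside 6.35% of all genes), all by small amounts, and 12 had a fold change below 0, with a median of -0.03. Set2 itself stood at 177 CPM in both genotypes (-0.01 ± 0.03, adjusted p = 0.97, edgeR). Spt6, an elongation factor and H3 chaperone, had 351, 349 and 345 CPM in H3.3K36R against 390, 386 and 392 CPM in H3.3Ctrl females (-0.16 ± 0.03, adjusted p = 0.000591, edgeR). Kdm2, a lysine demethylase, fell by 0.13 on the log2 scale (adjusted p = 0.00513, and 0.126 in the fit of the 6 libraries alone, edgeR), and the deacetylase gene HDAC1 rose by 0.14 ± 0.04 but lost its call without H3.3K36R replicate 1 or H3.3Ctrl replicate 1 or 2 (highest adjusted p = 0.103). Of 15 H3.3 and H3 chaperone genes only Spt6 was called, of 23 Polycomb group genes only Kdm2, and among 32 Polycomb targets, Hox genes included, there was no call (median log2 fold change -0.01).

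Among genes of the brain's own cells, 2 of 35 genes of differentiated neurons rose and 2 fell (11.4%, beside 6.35% of all genes): the potassium channel gene eag, with 67.8, 70.5 and 70.3 CPM in H3.3K36R against 59.9, 61.4 and 56.8 CPM in H3.3Ctrl (0.23 ± 0.05), and Trhn, the neuronal tryptophan hydroxylase, rose, and the sodium channel gene para, with 283, 289 and 265 CPM in H3.3K36R against 374, 422 and 326 CPM in H3.3Ctrl (-0.42 ± 0.09), and Ddc, the dopa decarboxylase, fell. The calls of Trhn and Ddc were lost without 4 and 3 of the libraries in turn (highest adjusted p = 0.115, without H3.3Ctrl replicate 3, and 0.0649, without H3.3K36R replicate 2), and para was not called in the fit of the 6 libraries alone (adjusted p = 0.0645, edgeR). For para, H3.3WT females averaged 242 CPM and yw females 365 CPM, so H3.3K36R lay between the other controls. Of 35 neural stem cell genes 1 fell, of 41 neuropeptide genes 3 fell and of 22 glial genes 2 rose (9.09%), the astrocyte gene alrm among them (0.38 ± 0.08). Summed, the 22 glial genes made 2300 to 2330 CPM in H3.3K36R against 2100 to 2270 CPM in H3.3Ctrl females, ranges that do not overlap. Of the 22, 13 had a fold change above 0 and 9 below, with a median log2 fold change of 0.04. Glial repo went the other way, with 108 to 113 CPM in H3.3K36R against 119 to 133 CPM in H3.3Ctrl (not called, adjusted p = 0.0683, edgeR). The call of alrm did not hold in the fit of the 6 libraries alone (adjusted p = 0.233, edgeR). apolpp, the lipophorin precursor and a member of the fat body list, had 1403, 1349 and 1360 CPM in H3.3K36R against 1083, 1194 and 1075 CPM in H3.3Ctrl females (0.30 ± 0.07), and the 16 fat body genes summed to 2220 to 2420 CPM in H3.3K36R against 1960 to 2210 CPM in H3.3Ctrl, a sum of which apolpp makes the greater part. Of the 16, 10 had a fold change below 0 (median -0.30), and Jhbp5 fell by 0.49 on the log2 scale, a call lost without any 1 of 3 libraries (highest adjusted p = 0.144, without H3.3K36R replicate 3, edgeR), while the fat body genes Lsp2 and Fbp1 overlapped between the genotypes, at 2.89 to 8.03 CPM in H3.3K36R against 1.41 to 12.9 CPM in H3.3Ctrl and at 1.22 to 6.36 CPM in H3.3K36R against 1.91 to 8.29 CPM in H3.3Ctrl.

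Of 52 cell cycle and replication genes 1 rose and 4 fell (9.62%, beside 6.35% of all genes). Of the 52, 48 had a fold change below 0, with a median of -0.08 beside -0.0002 for all genes. The share of all tested genes below 0 was not worked out. Summed, the 52 genes made 4470 to 5000 CPM in H3.3K36R against 4910 to 5050 CPM in H3.3Ctrl females, ranges that overlap. H3.3WT females had 4550 to 4920 CPM and yw females 5010 to 5200 CPM. Psf3, a subunit of the GINS replication complex on the X, rose (14.4, 14.6 and 14.6 CPM in H3.3K36R against 10, 10.2 and 10.7 CPM in H3.3Ctrl, 0.50 ± 0.06), and the Cdc25 phosphatase gene twe fell (7.60, 7.55 and 7.29 CPM in H3.3K36R against 9.21, 10.2 and 10.3 CPM in H3.3Ctrl, -0.41 ± 0.07). The clock gene per rose by 0.45 ± 0.08, the 1 call among 13 clock genes. Of 88 ribosomal protein genes 3 were called, RpS10a and the adjacent copies RpS14a and RpS14b on the X. RpS10a changed the most, with a log2 fold change of 1.23 to 1.56 when any 1 of the 6 libraries was left out. It was not called in the fit of the 6 libraries alone (adjusted p = 0.127, edgeR). RpS14a had 643, 639 and 659 CPM in H3.3K36R against 503, 524 and 492 CPM in H3.3Ctrl females, and RpS14b had 132, 130 and 129 CPM in H3.3K36R against 221, 233 and 208 CPM in H3.3Ctrl. The copies encode the same protein, so their reads may have been shared between them and the opposite directions are uncertain. None of the 18 tested genes of dosage compensation and sex determination, 18 heat shock genes, 20 p53 target and apoptosis genes or 26 ecdysone response genes was called. Over the 38 lists, 11 of those with at least 3 tested genes had no call and 14 had 1 or 2. Of 111 replication-dependent histone genes 1 passed the filter on low counts, and of the 37 mitochondrial genes none did, so neither list is described.

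The difference was largely shared by males. In males, H3.3K36R differed from H3.3Ctrl at 1212 genes (9.96%), 716 higher and 496 lower, and 539 genes were called with the same direction in both sexes, which is 69.8% of the female and 44.5% of the male calls. Of the 772 female calls 752 had the same sign in males (97.4%), and 2 genes were called in opposite directions. mthl8 had 12.9, 19.3 and 21.1 CPM in H3.3K36R males and no read in H3.3Ctrl males, and mfr had 0.0179, 0.0192 and 0.0807 CPM in H3.3K36R males against 51, 58.6 and 48.9 CPM in H3.3Ctrl males. GILT3 differed by 3.76 ± 0.14 in males, CG32641 by -4.07 ± 0.12 and CG34138 by -8.77 ± 0.38.

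The response itself differed between the sexes at 22 genes (0.181%), all of them on the X; DESeq2 called 41, of which 34 were on the X. In 17 of the 22 the change had the same sign in both sexes and was larger in males. Over the 185 X-linked genes called in both sexes with the same direction the median absolute log2 fold change was 0.483 in females and 0.57 in males, and over the 351 such autosomal genes 0.444 and 0.473. Mgstl fell by 1.36 in females and by 1.89 in males, where the levels were 30.8, 31.7 and 32.6 CPM in H3.3K36R against 124, 116 and 111 CPM in H3.3Ctrl (female minus male 0.53 ± 0.07, adjusted p = 6.65e-05, edgeR). kat80, the regulatory subunit of the microtubule-severing katanin, had 68.8, 68.5 and 71.2 CPM in H3.3K36R against 92.7, 91.1 and 95 CPM in H3.3Ctrl females, and 62.6, 58.5 and 63.4 CPM in H3.3K36R against 104, 105 and 99.5 CPM in H3.3Ctrl males. Rubicon rose by 1.15 ± 0.06 in females and 1.62 ± 0.06 in males, a difference that lost its call without any 1 of 4 libraries (adjusted p = 0.0667 without H3.3Ctrl female replicate 2, edgeR). lncRNA:CR42861 fell by 1.10 on the log2 scale in females and by 2.06 in males. Pa1, in the other direction, had 47, 46.7 and 45.7 CPM in H3.3K36R against 53.1, 55.9 and 53.9 CPM in H3.3Ctrl females, and 48.8, 50.5 and 48.3 CPM in H3.3K36R against 43.5, 44.9 and 43.4 CPM in H3.3Ctrl males. asRNA:CR45714 had 0.144, 0.129 and 0.154 CPM in H3.3K36R against 1.33, 1.01 and 0.958 CPM in H3.3Ctrl females, and 0.250, 0.231 and 0.323 CPM in H3.3K36R against 0.171, 0.123 and 0.166 CPM in H3.3Ctrl males, so the H3.3Ctrl females and males differed from each other. H3.3WT and yw females were divided at kat80 (means of 66.3 and 113 CPM), lncRNA:CR42861 (2.7 and 10.9 CPM) and asRNA:CR45714 (2.61 and 0.035 CPM), as at Mgstl. At the first 3 of these the female means of H3.3K36R and H3.3Ctrl both lay between them. At Pa1 H3.3K36R females lay below both (51.7 CPM in H3.3WT and 73.6 CPM in yw), and at Rubicon above both. The number of genes with a differing response was 9 to 27 when any 1 of the 12 libraries was left out, with 9 without H3.3K36R male replicate 1, 11 without H3.3K36R female replicate 3 or male replicate 2 or 3, 12 without H3.3Ctrl female or male replicate 1 and 13 without H3.3Ctrl female replicate 2. The number of male calls was 746 without H3.3K36R male replicate 2 and 792 without H3.3Ctrl male replicate 2.

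**Figure D5:**
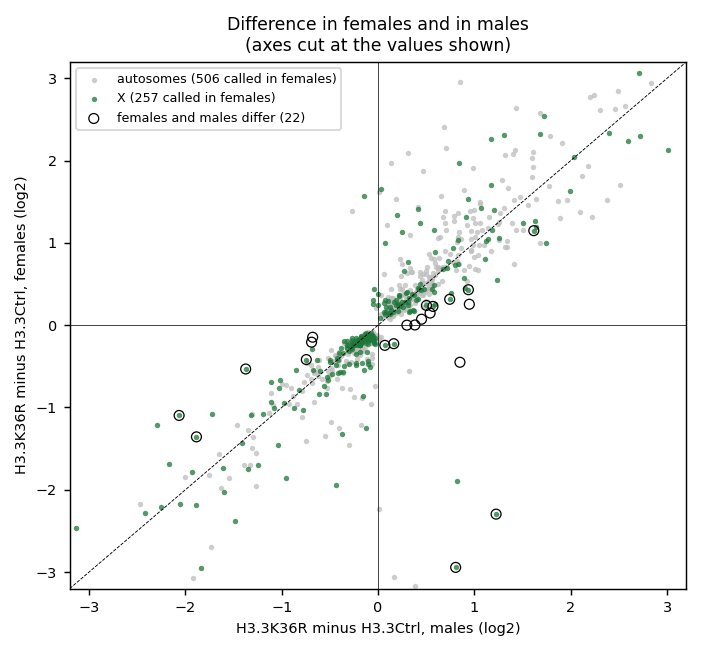
Log2 fold change of H3.3K36R over H3.3Ctrl in males (x axis) and females (y axis) for genes called in females, X-linked genes in green and autosomal genes in grey; rings mark the 22 genes, all X-linked, whose response differed between the sexes. Points follow the dashed line of equal change, and most rings lie on the male side of it. Genes past the axis limits are not drawn.

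RNA of male type was present in unequal amounts in the female libraries of H3.3K36R, H3.3Ctrl, H3.3WT and yw. lncRNA:roX2, a male RNA of the dosage compensation complex, had 8.24, 10.6 and 2.08 CPM in H3.3K36R against 1.1, 4.74 and 1.6 CPM in H3.3Ctrl females, 7.52, 15.5 and 9.94 CPM in H3.3WT females and 2.98, 3.18 and 0.0662 CPM in yw females, while H3.3K36R males had 38.6 to 48.1 CPM and H3.3Ctrl males 46.4 to 49.5 CPM. The ranges of the 2 female groups overlap and the difference was not called (adjusted p = 0.255, edgeR). The H3.3K36R females held 19.6%, 25.2% and 4.94% of the mean level of their males and the H3.3Ctrl females 2.3%, 9.95% and 3.36%. FDY, a Y-linked gene copied from an autosomal one, had 4.77, 6.31 and 2.33 CPM in H3.3K36R against 0.611, 0.985 and 0.420 CPM in H3.3Ctrl females (2.72 ± 0.60, adjusted p = 0.00322, edgeR). H3.3WT females had 3.59, 13.3 and 3.43 CPM of FDY, and yw females only 0.121, 0.0619 and 0.0882 CPM. Males had 25.9 to 31.3 CPM of FDY in H3.3K36R against 13.7 to 16.2 CPM in H3.3Ctrl. In all, 7 of 29 tested Y-linked genes rose in H3.3K36R females (24.1%, beside 3.44% of all genes) and none fell, and 4 to 7 rose when 1 of the 6 libraries was left out, with 4 without H3.3K36R replicate 2 or H3.3Ctrl replicate 1. Of the 7, 3 were called with the same direction in males. H3.3K36R alone was apart from H3.3WT and yw females at 0 of the 7 and H3.3Ctrl alone at 1. The part of male RNA in these Y-linked rises was not tested. msl-2 had 67.2, 68.6 and 54 CPM in H3.3K36R against 57.4, 58.8 and 54.5 CPM in H3.3Ctrl females and was not called. With all libraries 257 X-linked genes were called. The count was 210 without H3.3K36R replicate 2, which held the most lncRNA:roX2 of the 6, and 224 without H3.3K36R replicate 1. It was 225 without H3.3K36R replicate 3, which held the least of its group, and 204 to 247 without 1 H3.3Ctrl library. Each of these fits kept an H3.3K36R library with more lncRNA:roX2 than any H3.3Ctrl female library. The part of male RNA in the X-linked calls was not tested.

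Part of the H3.3K36R response was shared with the other mutants of this mark. H3.2K36R females, set against H3.3WT females, differed at 3018 genes (24.8%), and Set21 females, set against yw females, at 5155 (42.4%); neither comparison shares a library with the one described here. Of the 419 genes that rose in H3.3K36R, 229 also rose in Set21 (54.7% of the H3.3K36R rises and 9.01% of the Set21 rises, beside 20.9% of tested genes that rose in Set21) and 153 in H3.2K36R (36.5% and 11.3%, beside 11.1% of tested genes). Of the 353 that fell, 171 also fell in Set21 (48.4% and 6.55%, beside 21.5%) and 79 in H3.2K36R (22.4% and 4.74%, beside 13.7%). In the opposite direction, 50 of the 419 rises fell in Set21 (beside 21.5% of tested genes) and 44 of the 353 falls rose (beside 20.9%). In H3.2K36R, 38 of the 419 rises fell (beside 13.7%) and 48 of the 353 falls rose (beside 11.1%). The falls thus rose in H3.2K36R no less often than tested genes did. All 3 mutants showed a rise at 102 genes and a fall at 55.

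Among the rises named here, levels in Set21 females were near or above those in H3.3K36R females for some genes and lower for others. Set21 females averaged 0.201 CPM of mthl8, 3.43 CPM of CG34031, 3.92 CPM of Cyp6t1 and 0.588 CPM of Gr64a, each below every H3.3K36R female library. GILT3 averaged 15 CPM in H3.3K36R females and 14.4 CPM in Set21 females, but 1.53 CPM in H3.2K36R females. pst averaged 20.9, 22.6 and 6.27 CPM in H3.3K36R, Set21 and H3.2K36R females, and asRNA:CR45822 7.50, 11.2 and 0.121 CPM. sturkopf, a lipid droplet gene, and its neighbour Herc4, a ubiquitin ligase gene, stood at 41.7 and 191 CPM in H3.3K36R females, at 55 and 215 CPM in Set21 females and at 29.1 and 132 CPM in H3.2K36R females, against 25.8 and 131 CPM in H3.3Ctrl females. CG6912 and asRNA:CR45600 were low in Set21 females as well (5.91 and 8.8 CPM), while H3.2K36R females had 66.6 and 90.2 CPM. Among the germline genes, krimp averaged 27 CPM in H3.3K36R, 37.5 CPM in H3.2K36R and 3.16 CPM in Set21 females. In the order H3.3K36R, H3.2K36R and Set21 qin averaged 6.35, 16.8 and 3.87 CPM and Marf1 27, 123 and 48.6 CPM. Rubicon, at 52.6 CPM in H3.3K36R females, stood at 22.5 CPM in H3.2K36R and 21.1 CPM in Set21 females, within the range of the control genotypes.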

How the data were processed

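The deposited table holds raw counts of reads for 17606 genes in 36 libraries. Per the submitters' processing notes the authors used STAR 2.7.2a and Subread 2.0.3, and per the labels' protocols the libraries were polyA-selected, stranded and paired-end; the build, annotation and strand setting are not stated there. Among values of 1 to 4 in the 6 female libraries, 81.6 to 83.1% were even, so many read pairs entered as 2 reads. Gene names, arms and gene order came from Ensembl release 115, which matched 17527 genes.

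All 36 libraries in 12 groups were fitted together with edgeR 4.0.16 in R 4.3.3 (filterByExpr with a minimum count of 10, TMM, quasi-likelihood test, Benjamini-Hochberg adjustment, threshold 0.05); group means for distances used log2 CPM with a prior count of 2. The same test gave the contrasts in males, the female minus male response, and the comparisons with H3.3WT and yw. Alternatives were DESeq2 1.42.0, RLE or no factors, other filters, the 6 libraries alone, replicate blocks and leaving out libraries. The test was checked on simulated data. Libraries of a group differed by far more than sampling noise (chi-square per degree of freedom 20.9 to 90.6). Same-numbered libraries of the 2 female groups did not deviate together (r = -0.04, 0.03 and 0.15), so the numbers were not treated as pairs. Precision is limited by 3 libraries per group and a biological coefficient of variation of 0.118.

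Members and gene lists were chosen with earlier results of these data known. Named genes followed a rule: the H3.3 genes; the 15 largest rises and falls with at least 5 CPM in the higher group, no overlap and a given symbol; the 10 smallest p; up to 4 called genes per list; the 6 strongest in both sexes and in the female minus male response; and 4 for each answer of the check on which genotype was apart. Other genes named (germline genes in the plot, markers, lncRNA:roX2, msl-2, FDY, Set2) were chosen after their values were seen.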

Additional observations from a re-analysis of the deposited data

Results flagged for a closer look

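The response to H3.3K36R differed between females and males at 22 genes by the test of the difference itself. Among the genes named in the report, the female minus male difference on the log2 scale was -3.75 for asRNA:CR45714, 0.53 for Mgstl, 0.97 for lncRNA:CR42861, 0.33 for kat80, -0.39 for Pa1, -0.34 for eag, -0.69 for CG33080 and -0.47 for Rubicon. CG33080 averaged 22.3 CPM in H3.3K36R and 18.7 CPM in H3.3Ctrl females, and 25.7 CPM in H3.3K36R and 13.3 CPM in H3.3Ctrl males. The difference for eag was not called without any 1 of 9 libraries. Groups of 3 libraries were too small to look for single libraries far from the rest.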

How the results depend on the processing

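DESeq2, RLE factors, no factors, no filter and a minimum count of 50 gave 682 to 955 female calls beside 772, and the replicate block gave 792, with 746 of the 772 genes among them. Only the 6 compared libraries gave 320 female calls (182 higher and 138 lower), 120 on the X, 31 in the gene lists beside 64, and 53 among the 92 named genes beside 89; with fewer libraries the spread of each gene rests on fewer degrees of freedom. Leaving out 1 library gave 571 to 712 female calls, 746 to 990 male calls beside 1212, and 9 to 27 genes with a female minus male difference beside 22; DESeq2 gave 41 of those, 34 on the X, and the replicate block 20. The X-linked count was 8 to 26 when 1 library was left out. Against other controls, H3.3K36R differed at 1345 genes from H3.3WT alone, and H3.3Ctrl at 518 from H3.3WT and 2118 from yw alone. For which genotype was apart, H3.3WT alone gave 113 genes for H3.3Ctrl only, 164 for both and 68 for neither; yw alone gave 272 for both and 35 for neither; and calls against the mean gave 124 for both and 86 for neither. Leaving out 1 library gave 113 to 181 for neither, 305 to 445 for H3.3K36R only and 56 to 109 for H3.3Ctrl only; with 2 libraries a group lies outside the others more easily. Of the 92 named genes 54 had the same call in all 13 settings and none changed direction with a call.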
